A study of Mus musculus with 24 samples.

Results

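The genes of the proteasome were followed in mouse brain after repeated injection of bacterial lipopolysaccharide (LPS). The proteasome genes were taken as all protein-coding rows whose symbol begins with Psma, Psmb, Psmc, Psmd or Psme and a digit, with at least 10 counts summed over the 24 libraries. This gave 44 of the 55421 genes in the table. Of these, 5 belong to the immune form of the particle or to its interferon-responsive activator (Psmb8, Psmb9, Psmb10, Psme1 and Psme2), and 39 make up the rest. Psmc3ip, whose symbol matches, encodes a partner protein of meiotic recombination and not a subunit. Too few counts were present to test 2 of the rest, Psma8 (34 counts, a testis subunit) and Psme2b (153 counts, a close copy of Psme2), so 42 genes were tested.

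The libraries came from left hemispheres of C57BL/6J mice aged 3 months, 6 in each of 4 groups. Wild type mice (WT) and mice labelled Nox2 knockout (Nox2KO, lacking the gp91phox subunit of the phagocyte NADPH oxidase) received either 100 µl LPS from Salmonella abortus equi, at 1 µg per g of body weight, or 100 µl PBS, intraperitoneally once a day for 4 days. PBS is the saline vehicle, and LPS is the cell wall component of Gram-negative bacteria that triggers innate immune signalling. The knockout label names no tissue-specific driver, and the time between the last injection and tissue collection is not given in the sources used here. Each library counted QuantSeq tags, reads from the 3′ end of polyadenylated RNA, so a value reports RNA of a gene and neither protein nor assembled particles.

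Depth ranged from 2340184 to 5256169 counts per library, of which the proteasome genes took 0.404 to 0.462%. Cybb, the gene of gp91phox, stood higher in the libraries labelled knockout, with 67.8 ± 5.18 against 1.49 ± 0.65 normalised CPM in the PBS groups and 72.0 ± 4.04 against 24.7 ± 8.06 in the LPS groups (SD, n = 6). Which part of Cybb is disrupted is not given in the sources used here, so tags from its 3′ end do not check the genotype, and each direction between genotypes rests on the labels. In the LPS group of wild type mice, replicates 1 and 2 differed from replicates 3 to 6, with Cybb at the bottom of the group, and results that use them are also given without them.

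The proteasome is a barrel-shaped protease that degrades ubiquitin-tagged proteins. Its core is made of rings of alpha subunits (Psma genes) around rings of beta subunits (Psmb genes), and only the beta subunits encoded by Psmb5, Psmb6 and Psmb7 cut peptide bonds. Interferon signalling induces alternative catalytic subunits, Psmb8 in the place of Psmb5, Psmb9 in that of Psmb6 and Psmb10 in that of Psmb7, and the resulting immunoproteasome yields peptides suited to class I major histocompatibility molecules. A regulatory cap of ATPases (Psmc genes) and non-ATPase subunits (Psmd genes) binds and unfolds substrates. Psme1 and Psme2 encode the PA28 alpha and beta subunits of another activator, which opens the core without ubiquitin. In brain, immunoproteasome subunits are known chiefly from microglia and other immune cells.

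The immune genes lie in 2 tight clusters and 1 separate site. In GRCm38 with the GENCODE M21 annotation, Psmb9 (ENSMUSG00000096727, chr17:34181987-34187764, minus strand) and Psmb8 (ENSMUSG00000024338, chr17:34197721-34201454, plus strand) flank Tap1, the first subunit of the peptide transporter (chr17:34187553-34197225), and Tap2, the second, follows at chr17:34203527-34216321. Psme1 (ENSMUSG00000022216, chr14:55578123-55581529, plus strand) and Psme2 (ENSMUSG00000079197, chr14:55587441-55591113, minus strand) face each other with Emc9 between them, separated by 5911 bases. Psmb10 (ENSMUSG00000031897) stands alone at chr8:105935735-105938444 on the minus strand. The start regions of these 5 genes are shown because Psmb8, Psmb9 and Psme1 rose with LPS in both genotypes, while Psmb10 and Psme2 passed the test in neither. Each window runs from 250 bases before to 50 bases after a RefSeq start (GRCm38.p6), 5′ to 3′ on the gene's strand: Psmb8 at chr17:34197945-34198244, Psmb9 at chr17:34187281-34187580, Psme1 at chr14:55578244-55578543, Psmb10 at chr8:105938343-105938642 and the upstream of 2 windows for Psme2 at chr14:55591052-55591351. Capitals mark matches to the 4 motifs searched.
Psmb8: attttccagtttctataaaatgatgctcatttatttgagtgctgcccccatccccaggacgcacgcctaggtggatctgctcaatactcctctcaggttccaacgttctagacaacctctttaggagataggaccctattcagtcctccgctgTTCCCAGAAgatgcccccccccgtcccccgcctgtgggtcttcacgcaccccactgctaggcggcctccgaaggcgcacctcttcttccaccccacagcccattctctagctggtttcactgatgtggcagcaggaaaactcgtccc
Psmb9: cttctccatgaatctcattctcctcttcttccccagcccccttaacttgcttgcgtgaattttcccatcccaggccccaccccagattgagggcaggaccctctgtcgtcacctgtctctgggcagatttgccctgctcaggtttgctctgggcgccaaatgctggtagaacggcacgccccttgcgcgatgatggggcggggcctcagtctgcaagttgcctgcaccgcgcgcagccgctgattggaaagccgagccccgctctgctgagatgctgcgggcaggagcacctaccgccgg
Psme1: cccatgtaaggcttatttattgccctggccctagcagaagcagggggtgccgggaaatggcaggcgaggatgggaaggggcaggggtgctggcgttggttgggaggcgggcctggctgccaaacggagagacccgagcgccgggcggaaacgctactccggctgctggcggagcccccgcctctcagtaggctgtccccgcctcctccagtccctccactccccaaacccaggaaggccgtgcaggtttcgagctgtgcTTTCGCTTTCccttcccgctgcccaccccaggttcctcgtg
Psmb10: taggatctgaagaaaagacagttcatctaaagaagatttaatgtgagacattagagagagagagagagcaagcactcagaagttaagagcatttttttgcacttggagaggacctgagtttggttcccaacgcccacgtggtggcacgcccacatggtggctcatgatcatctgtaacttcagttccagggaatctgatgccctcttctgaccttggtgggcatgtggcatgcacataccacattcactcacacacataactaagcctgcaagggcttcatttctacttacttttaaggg
Psme2: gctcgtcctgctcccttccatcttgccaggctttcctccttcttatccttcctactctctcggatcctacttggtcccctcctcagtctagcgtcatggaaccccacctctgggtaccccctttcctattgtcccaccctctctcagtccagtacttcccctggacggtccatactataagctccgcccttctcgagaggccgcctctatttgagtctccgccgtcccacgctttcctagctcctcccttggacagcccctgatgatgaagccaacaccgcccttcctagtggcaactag

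In all 5 genes the RefSeq start used lies inside the span of the GENCODE gene, so other transcripts may start upstream of it. Both strands were searched for GAAA and GAAA with any 2 bases between (a form of the interferon-stimulated response element), TTCNNNGAA (the interferon gamma-activated site), GGGA and TTCC with any 2 bases between (a form of the kB site) and TGACNNNGC (a form of the antioxidant response element). The Psmb8 window held 1 match, TTCCCAGAA at chr17:34198098-34198106, to the gamma-activated form, which 8.30% of 32851 windows contain. Psme1 held TTTCGCTTTC at chr14:55578503-55578512, a reverse-strand match to the interferon response form, which 3.44% of windows contain. The Psmb9, Psmb10 and Psme2 windows held none of the 4. The Psmb9 window shares 275 of its bases with the window of Tap1, which runs the other way. Among the 37 proteasome genes with a window, the interferon response form was also found in Psmb3, Psmd4 and Psmd9, and the gamma-activated form in Psmd2. The kB form was found in Psme4 (1.47% of windows), and the antioxidant form in Psmb5, Psmb6, Psmc6, Psmd12, Psmd9 and Psme4 (12.4% of windows).

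Psmb8, which takes the place of Psmb5, had the largest rise of the 42 tested genes in both genotypes. In wild type mice Psmb8 ran from 2.28 through a median of 4.05 to 5.31 CPM after PBS, and from 10.8 through 16.3 to 20.9 CPM after LPS, where CPM is the tag count relative to library size after TMM scaling. In the libraries labelled knockout the same figures were 3.56, 4.12 and 5.54 CPM after PBS and 10.2, 14.7 and 18.97 CPM after LPS. Every LPS library stood above every PBS library of its genotype. Psmb8 had few reads after PBS, 8 to 25 counts per PBS library and 33 to 89 per LPS library over both genotypes. The lowest wild type LPS values, 12.1 and 10.8 CPM, were those of replicates 1 and 2. The difference was 2.06 ± 0.20 on the log2 scale in wild type (SE, edgeR adjusted p = 1.7e-11), a 4.17-fold rise with a 95% interval of 3.19 to 5.45. In the libraries labelled knockout it was 1.78 ± 0.20 (edgeR adjusted p = 2e-09). By size of rise in wild type it ranked 151 of the 14380 genes tested. In bulk tissue such a rise cannot be told apart into more cells that express a gene and more RNA per cell.

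Psmb9, the partner that replaces Psmb6, also rose in both genotypes. Wild type libraries ran from 1.35 through 2.7 to 5.24 CPM after PBS and from 4.30 through 7.39 to 10.4 CPM after LPS. The groups overlapped there, since PBS replicate 1 (5.24 CPM) lay above LPS replicate 5 (4.30 CPM). Libraries labelled knockout ran from 1.30 through 2.94 to 4.10 CPM after PBS and from 4.31 through 6.61 to 10.8 CPM after LPS, with no overlap. The log2 differences were 1.49 ± 0.27 in wild type (edgeR adjusted p = 3.8e-05) and 1.40 ± 0.27 in the libraries labelled knockout (edgeR adjusted p = 0.00018). Psmb9 rested on few reads, 5 to 21 counts per PBS library and 11 to 47 per LPS library.

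Psmb10, the third immune catalytic subunit, passed the test in neither genotype. It was present at 30.7 to 38.7 CPM in wild type PBS libraries (median 36.4) and at 35.0 to 47.6 CPM after LPS (median 39.4). Libraries labelled knockout held 30.4 to 42.6 CPM (median 38.7) after PBS and 38.0 to 46.4 CPM (median 43.4) after LPS. The ranges overlapped in both genotypes, and neither difference passed the test, at 0.20 ± 0.09 in wild type (edgeR adjusted p = 0.10) and 0.23 ± 0.08 in the libraries labelled knockout (edgeR adjusted p = 0.081). The 95% intervals were 0.03 to 0.37 and 0.06 to 0.39. A comparison added after these values were seen, LPS against PBS averaged over both genotypes, called Psmb10 higher by 0.21 ± 0.06 (edgeR adjusted p = 0.0065). That comparison called 5 of 42 proteasome genes, all higher (Psmb8, Psmb9, Psmb10, Psme1 and Psmd4), where 22.7% of all genes were called, 12.5% higher and 10.2% lower. Without wild type LPS replicates 1 and 2 it called 10, with Psmb10 still among them.

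**Figure D1:**
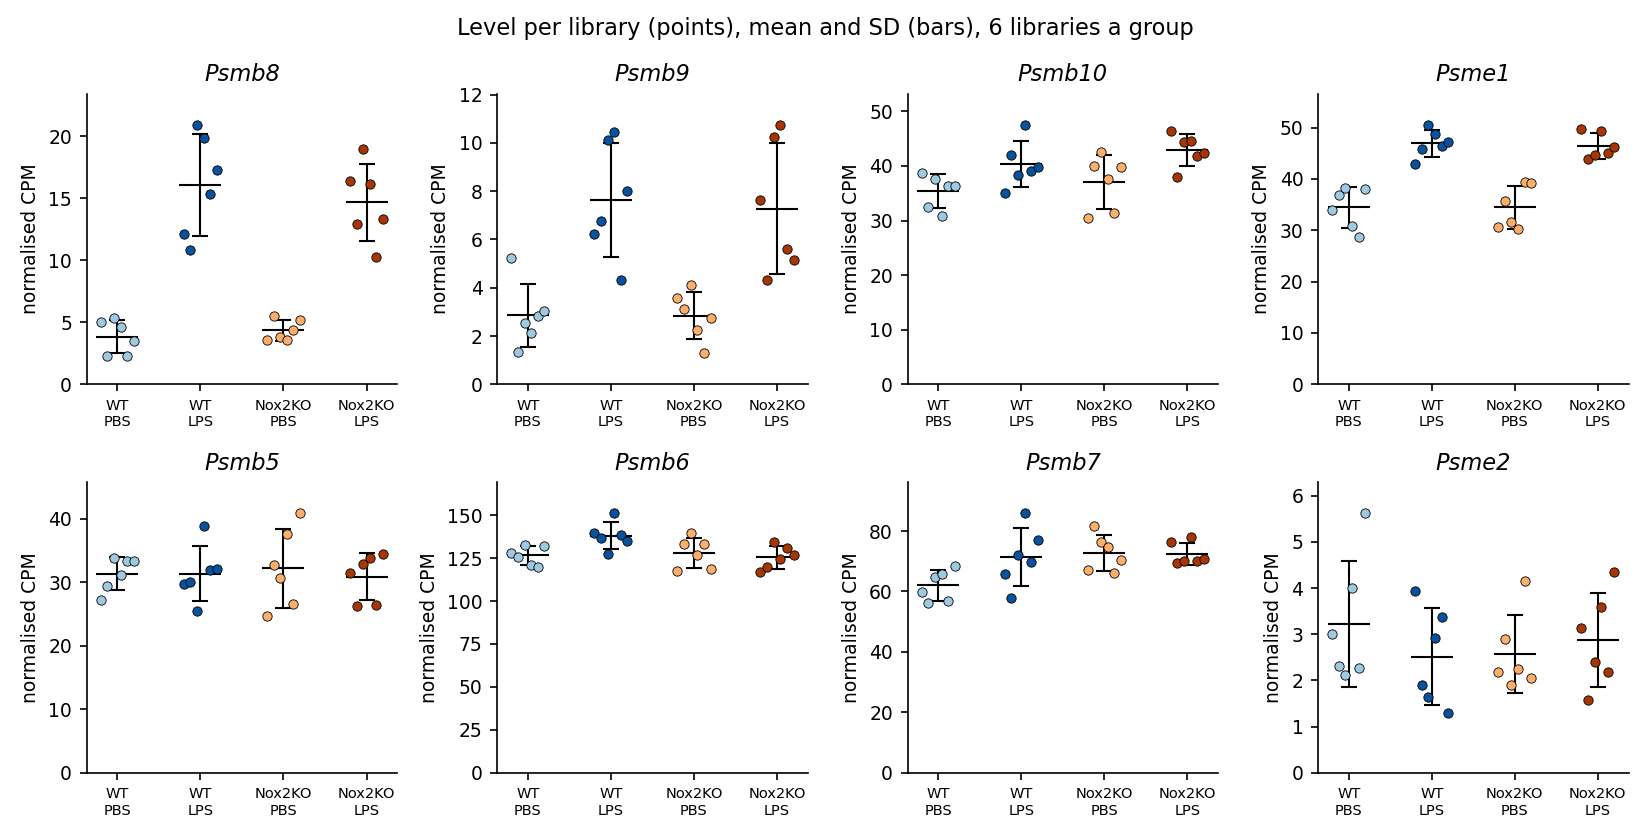
Normalised CPM (vertical axes, each from 0) of the 3 immune catalytic genes, their constitutive partners and PA28 genes in every library, by group; points are libraries and bars the mean and SD of 6. All LPS libraries of Psmb8 and Psme1 lie above the PBS libraries of their genotype, whereas the groups of Psmb10, Psme2 and Psmb5 overlap.

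Of the PA28 genes, Psme1 passed the test in both genotypes and Psme2 in neither. Psme1, encoding the alpha subunit, ran from 28.7 through 35.4 to 38.3 CPM in wild type PBS libraries and from 42.9 through 46.8 to 50.6 CPM after LPS. Libraries labelled knockout ran from 30.2 through 33.7 to 39.5 CPM after PBS and from 43.9 through 45.6 to 49.8 CPM after LPS. No LPS library overlapped a PBS library in either genotype. The rise was small and precise, 0.45 ± 0.08 in wild type (edgeR adjusted p = 2.3e-05) and 0.44 ± 0.08 in the libraries labelled knockout (edgeR adjusted p = 6.4e-05). Psme2, encoding the beta subunit, ran from 2.13 through 2.65 to 5.62 CPM in wild type PBS libraries and from 1.29 through 2.40 to 3.93 CPM after LPS. In libraries labelled knockout it ran from 1.91 through 2.22 to 4.16 CPM and from 1.57 through 2.77 to 4.34 CPM. All 4 ranges of Psme2 overlapped. Its differences were -0.32 ± 0.29 (edgeR adjusted p = 0.52) and 0.17 ± 0.29 (edgeR adjusted p = 0.81), with 95% intervals of -0.90 to 0.26 and -0.41 to 0.75. Psme2 had 4 to 19 counts per library, and 66.8% of the 50-base words in its last 500 transcript bases also occur in transcripts of other genes, chiefly Psme2b, so its tags could have been lost or split. With Psme2b added, the wild type PBS and LPS groups averaged 4.74 ± 1.58 and 4.32 ± 2.06 CPM (SD, n = 6), and those labelled knockout 3.98 ± 0.94 and 4.85 ± 1.30 CPM.

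The constitutive catalytic genes differed little, and 1 of the 3 passed the test, in wild type. Psmb5, replaced by Psmb8, ran from 27.2 through 32.2 to 33.8 CPM in wild type PBS libraries and from 25.4 through 31.0 to 38.8 CPM after LPS, a difference of 0.01 on the log2 scale. In Psmb5, 54.5% of the words near the 3′ end recur in other genes' transcripts. Psmb6, replaced by Psmb9, ran from 120.0 through 126.9 to 132.8 CPM and from 127.3 through 137.6 to 151.2 CPM, a difference of 0.13 that did not pass the test (edgeR adjusted p = 0.094). Psmb7, replaced by Psmb10, ran from 56.1 through 62.4 to 68.4 CPM and from 57.7 through 71.0 to 85.9 CPM, and was called higher in wild type, by 0.21 ± 0.07 (edgeR adjusted p = 0.037). In the libraries labelled knockout Psmb7 averaged 72.8 CPM after PBS and 72.4 CPM after LPS, so the wild type PBS group, at 62.0 CPM, was the low one of the 4.

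Tags of each immune gene were next set against its constitutive partner within a library, which removes library size. The tags of different genes are captured unequally, so a ratio has meaning only between groups. Psmb8 amounted to 12.3 ± 4.65% of Psmb5 (SD, n = 6) in wild type PBS libraries and 52.1 ± 16.3% after LPS, and to 13.8 ± 2.80% and 47.4 ± 7.51% in the libraries labelled knockout. The highest PBS ratio, 18.3%, lay below the lowest LPS ratio, 36.0%, over all 24 libraries. Psmb9 amounted to 2.25 ± 1.02% of Psmb6 after PBS and 5.55 ± 1.75% after LPS in wild type, and to 2.23 ± 0.77% and 5.79 ± 2.11% in the libraries labelled knockout. The ratio of Psmb10 to Psmb7 overlapped between PBS and LPS, at 57.4 ± 6.77% and 57.0 ± 7.88% in wild type and 50.7 ± 4.53% and 59.3 ± 3.02% in the libraries labelled knockout. The 3 immune genes together made up 16.0 ± 1.47% of all 6 catalytic genes' tags after PBS and 21.0 ± 1.78% after LPS in wild type, and 15.9 ± 1.19% and 22.0 ± 1.73% in the libraries labelled knockout. When wild type LPS replicates 1 and 2 were left out, the 4 ratios of their group were 58.9, 5.97, 54.0 and 21.6%.

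**Figure D2:**
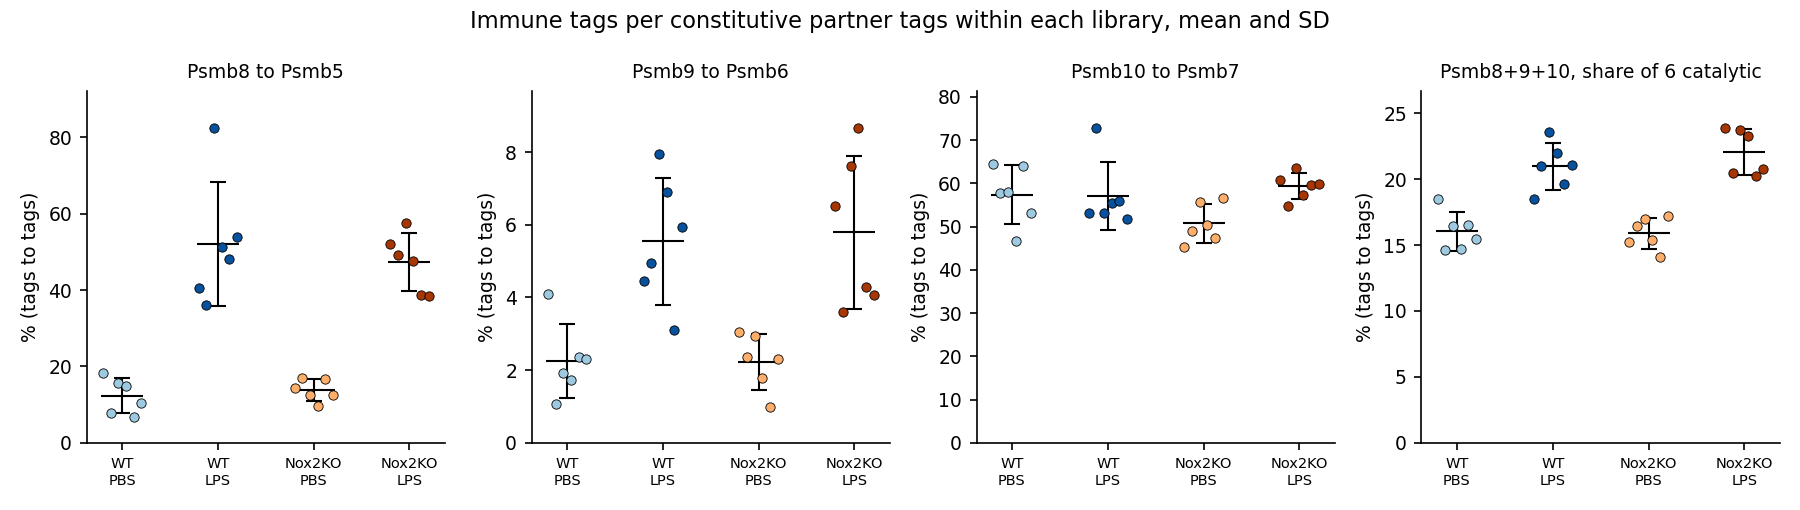
Tags of each immune catalytic gene as a percentage of its constitutive partner's tags, and the 3 immune genes as a share of all 6 catalytic genes, in every library (vertical axes in percent, from 0); bars are the mean and SD of 6 libraries. The Psmb8 to Psmb5 ratio lies at 18.3% or lower in all PBS libraries and at 36.0% or higher in all LPS libraries, while the Psmb10 to Psmb7 ratio overlaps.

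Over the whole set, 10 of 42 tested proteasome genes were called in wild type (adjusted p under 0.05), 7 higher and 3 lower, where 18.1% of all genes tested were called (10.9% higher and 7.12% lower). The 5 immune genes gave 3 calls, with a median log2 difference of 0.45. The other 37 gave 7 calls, 18.9%, with a median of 0.04 against -0.01 for all genes. The share of adjusted calls among the rest thus lay near the background. An unadjusted p under 0.05 by edgeR was found for 17 of the 42, 40.5% against 29.8% of all genes. The rest had 10 such genes higher and 3 lower, where all 14380 genes had 2323 higher and 1957 lower. The 17 were made up of 4 of the 5 immune genes and 13 of the 37 others. Genes measured in the same animals are not independent, and an upward lean of the rest was not tested. In the libraries labelled knockout 3 of 42 were called, all higher, where 10.9% of all genes were (7.05% higher and 3.82% lower). These were Psmb8, Psmb9 and Psme1, and 0 of the other 37 passed edgeR's test, with 1 at an unadjusted p under 0.05 (Psme4; 21.7% of all genes) and 0 by DESeq2. The medians there were 0.44 for the immune genes and 0.00 for the rest. Groups without any overlap were found for 2 of 42 genes in wild type, Psmb8 and Psme1, where 5.88% of all genes had every LPS library above every PBS library, and for 3 of 42 in the libraries labelled knockout (4.24% of all genes).

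Changes in the rest of the particle were small in both directions. In wild type, log2 differences of the 37 genes ran from -0.27 to 0.22, and for 36 of them the 95% interval lay within a 1.5-fold change either way. The 37 had a median SE of 0.07. Besides Psmb7, the genes called higher were Psmc1, an ATPase of the cap, by 0.16 ± 0.05, the ubiquitin receptor Psmd4 by 0.20 ± 0.07, and the lid subunit Psmd13 by 0.20 ± 0.06. Their wild type means were 296 CPM after PBS and 331 CPM after LPS for Psmc1, 238 and 272 CPM for Psmd4, and 113 and 129 CPM for Psmd13. Called lower were the alpha ring subunit Psma3 by -0.24 ± 0.08, the cap ATPase Psmc6 by -0.19 ± 0.07 and Psmd5, a chaperone of cap assembly, by -0.27 ± 0.10. Psma3, with LPS replicate 2 far below the others at 36.8 CPM, fell from a mean of 50.7 CPM to 42.9 CPM, Psmc6 from 94.7 to 83.4 CPM and Psmd5 from 39.8 to 33.0 CPM. Adjusted p by edgeR lay between 0.019 and 0.048 for these 7 genes, and the LPS and PBS ranges overlapped for each of them.

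The calls outside the immune genes depended on which libraries were included. Leaving out 1 library at a time, each of the 7 lost its call in 2 to 10 of 24 fits, and the count of proteasome genes called in wild type ran from 5 to 11. It was 5 without PBS replicate 1, PBS replicate 2 or LPS replicate 6, and 6 without PBS replicate 3, PBS replicate 4, LPS replicate 4 or LPS replicate 5. Psmb8, Psmb9 and Psme1 kept their calls in all 24 fits in both genotypes, with edgeR adjusted p no higher than 0.0015. Without wild type LPS replicates 1 and 2, the wild type count was 11 of 42, with Psmd3, Psmd7 and Psmd9 added and Psma3 and Psmd5 lost. Psmb8, Psmb9 and Psme1 then stood at 2.24, 1.59 and 0.49.

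By role in wild type, the 4 non-catalytic beta genes had 0 calls, the 7 tested alpha genes 1, and the 6 ATPases of the cap 2, where 18.1% of all genes were called. Among the 11 non-ATPase subunits of the cap 2 were called, and among its 3 assembly chaperones 1. Psme3 and Psme4, which encode the nuclear activators PA28 gamma and PA200, had none. Tags near the 3′ end of Psma5, Psmb3 and Psmd1 also recur elsewhere for 62.5, 63.2 and 56.8% of words, so values of these genes are uncertain. Among the called genes the share was 35.9% for Psma3, 20.8% for Psmc1 and 13.6% for Psme1, and no more than 0.99% for the others. The 3′ ends of Psmb8 and Psmb10 overlap the predicted antisense genes Gm20496 and Gm16156, which had at most 1 count in any library. The 3′ ends of Psme1, Psmb7 and Psma3 lie inside Emc9 (47 to 116 counts per library), Nek6 (28 to 80 counts) and 3110056K07Rik (13 to 30 counts), and whether strand was used in counting is not given in the sources used here.

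**Figure D3:**
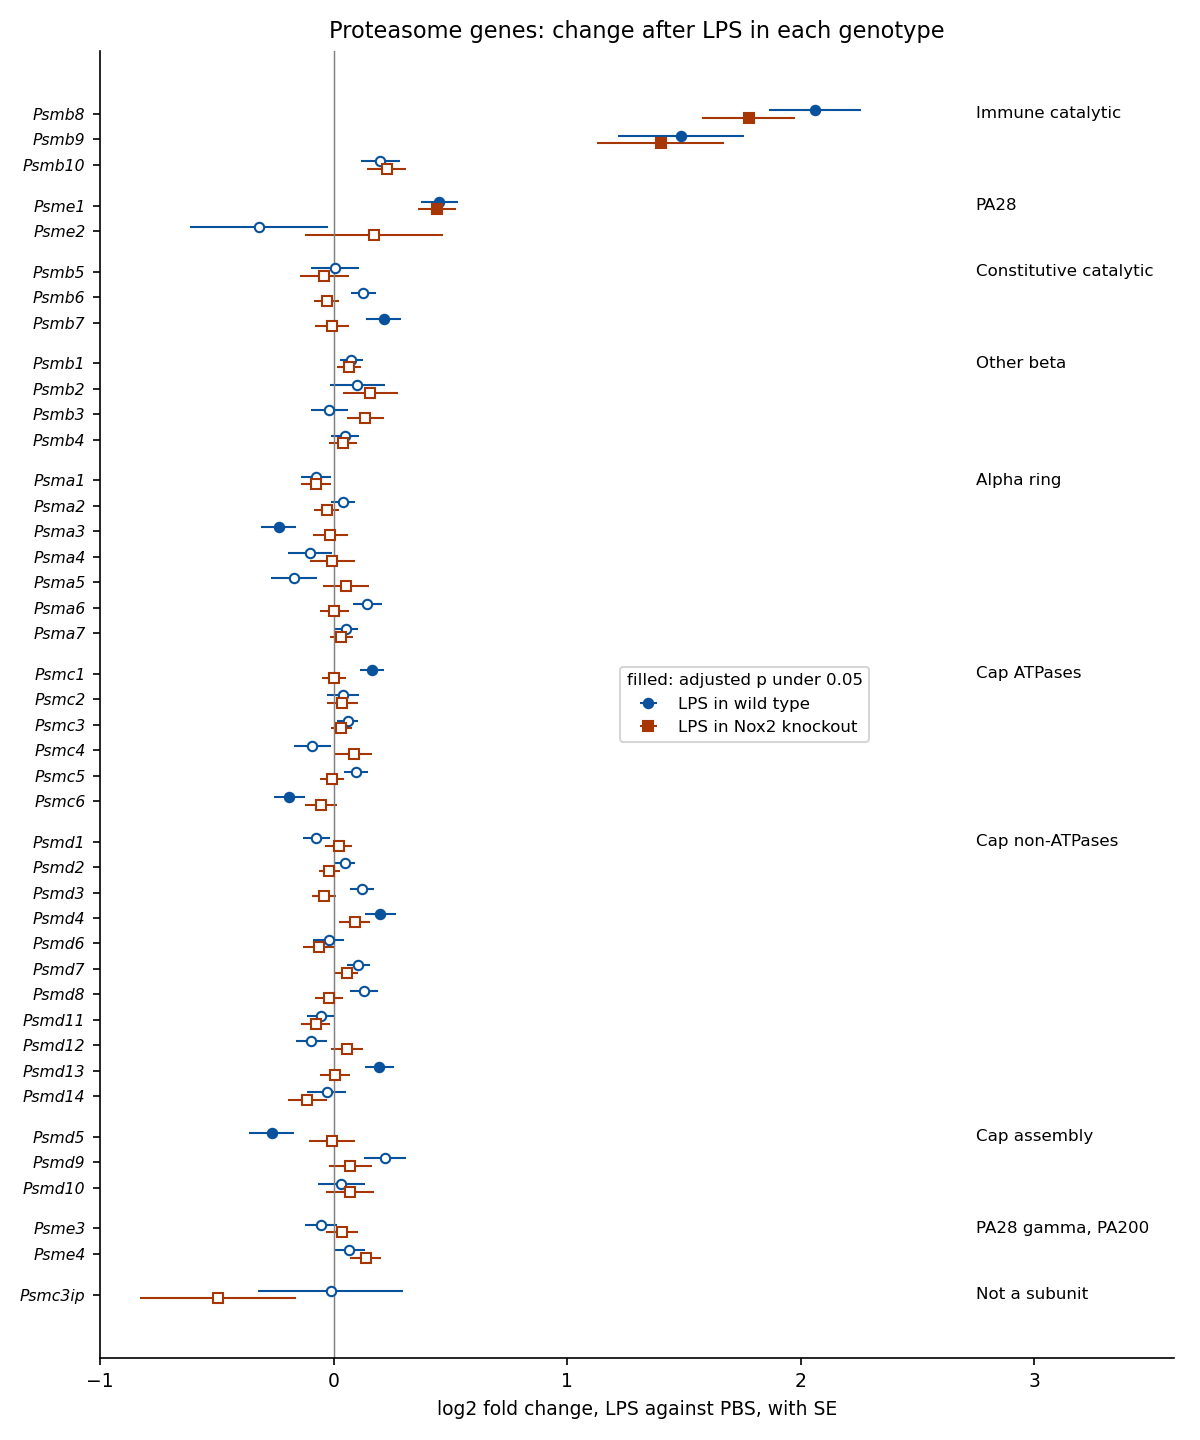
Log2 fold change of LPS against PBS with its SE (horizontal axis) for the 42 tested genes, grouped by role, in wild type (circles) and in the libraries labelled knockout (squares); filled symbols have an adjusted p under 0.05. Psmb8 (2.06 and 1.78), Psmb9 (1.49 and 1.40) and Psme1 (0.45 and 0.44) are filled in both genotypes, and most of the rest lie near 0. The low-count genes Psmc3ip (-0.49 in the libraries labelled knockout) and Psme2 (-0.32 in wild type) lie further out, with open symbols.

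The genotype comparisons called 0 of 42 proteasome genes, both by edgeR and by DESeq2. After PBS, 0.132% of all genes were called. An unadjusted p under 0.05 was found for 3 proteasome genes (Psmb7, Psmc1 and Psmd3), 7.14% against 8.73% of all genes. After LPS, 1.05% of all genes were called, and 4 proteasome genes (Psma3, Psmb6, Psmd13 and Psmd8) had an unadjusted p under 0.05, 9.52% against 11.4% of all genes. The difference between the LPS changes of the genotypes, the interaction, called 0.00695% of all genes, and 6 proteasome genes had an unadjusted p under 0.05, 14.3% against 9.78% of all genes. For Psmb8 the interaction was -0.28 ± 0.30, with a 95% interval of -0.86 to 0.30, and for Psmb9 it was -0.09 ± 0.40 (-0.86 to 0.69). Psme1 was the best determined, at -0.01 ± 0.11 (-0.23 to 0.21). For the 7 genes of the rest called in wild type, the interaction had edgeR adjusted p between 0.45 and 0.75, so their responses were not shown to differ between genotypes. Psmb8 levels between genotypes after LPS differed by -0.13 ± 0.16, an interval of -0.43 to 0.18.

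Genes that act next to the proteasome in class I peptide presentation were taken from a list of 11. In wild type 9 were higher and 0 lower, and in the libraries labelled knockout 6 were higher and 0 lower, against 10.9 and 7.05% of all genes called higher. Tap1 rose by 2.06 ± 0.24 and 1.89 ± 0.24, close to the values of its neighbour Psmb8. B2m, the light chain of class I molecules, rose by 1.76 ± 0.08 and 1.60 ± 0.08, and the heavy chains H2-K1 and H2-D1 by 2.27 ± 0.13 and 1.92 ± 0.10 in wild type. Tapbp, the tapasin that loads peptides, rose by 0.85 ± 0.09, and Tap2, shown for its position, by 0.72 ± 0.17 in wild type and 0.94 ± 0.17 in the libraries labelled knockout.

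Some regulators of interferon-dependent transcription rose, and 0 were called lower. Of 13 tested, 6 were higher in wild type and 4 in the libraries labelled knockout, where 10.9 and 7.05% of all genes were. Irf1, a factor known to drive the immunoproteasome genes, rose by 1.33 ± 0.16 and 0.87 ± 0.16, Irf8 by 1.47 ± 0.15 and 1.29 ± 0.15, and the receptor gene Ifngr1 by 1.09 ± 0.10 and 0.88 ± 0.10. Ifnar2, of the type I interferon receptor, rose by 0.87 ± 0.12 and 0.41 ± 0.12. The interaction called 0 of these 13 regulators and 0 of the 11 peptide presentation genes, where 0.00695% of all genes were called. Their LPS responses were thus not shown to differ between genotypes. Nfe2l1, which encodes the factor that raises constitutive proteasome genes when proteasomes are inhibited, stood at -0.03 ± 0.05 and 0.03 ± 0.05, whereas Nfe2l2 rose by 0.77 ± 0.13 and 0.55 ± 0.14. Of 17 tested assembly factors and partners, 1 was called in wild type, the shuttle factor Ubqln2 at -0.29 ± 0.08, and 0 in the libraries labelled knockout (1 at an unadjusted p under 0.05), where 18.1 and 10.9% of all genes were called. Pomp, the maturation factor of new cores, stood at 0.10 ± 0.05 and -0.03 ± 0.05. Among 5 tested ubiquitin and ubiquitin-like genes, 2 were called higher in wild type (10.9% of all genes) and 0 in the libraries labelled knockout (7.05% of all genes), with 2 there at an unadjusted p under 0.05. Those higher in wild type included Uba7, the activating enzyme of Isg15, which rose by 1.39 ± 0.43. Uba7 rested on few reads, 0 to 6 counts per wild type PBS library and 6 to 12 after LPS. Only 3 wild type LPS libraries lay above the highest PBS library. The libraries labelled knockout had 3 to 12 counts after PBS and 5 to 14 after LPS.

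**Figure D4:**
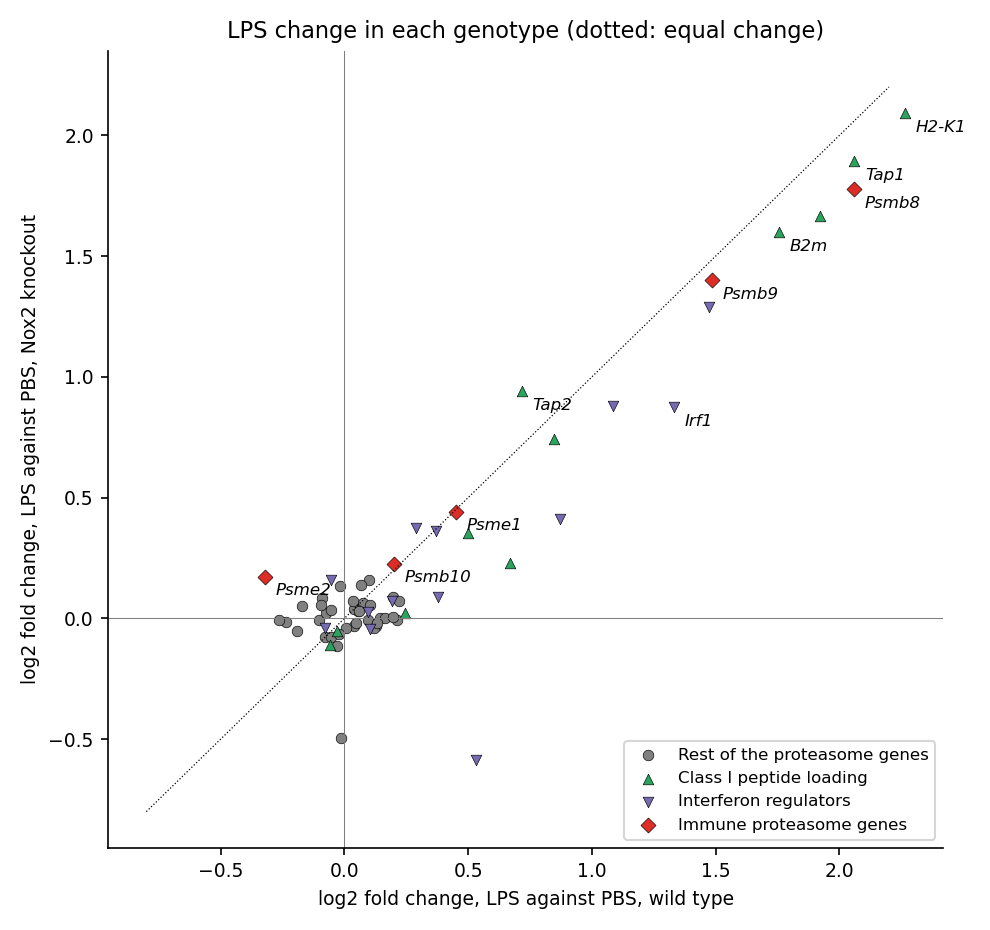
Log2 fold change of LPS against PBS in wild type (horizontal axis) and in the libraries labelled knockout (vertical axis) for proteasome, peptide loading and interferon regulator genes; the dotted line marks equal change. Psmb8 lies beside Tap1 (2.06 and 1.89) and the constitutive proteasome genes cluster around 0.

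Cell type markers moved with the same comparison. Neuronal, astrocyte and oligodendrocyte markers were all detected in every group, as the tissue label implies. The summed CPM of 10 microglial genes was 289 to 347 in wild type PBS libraries and 651 to 887 after LPS, against 277 to 320 and 547 to 715 over libraries labelled knockout. Of these 10, 8 were higher and 1 lower in wild type, and in the libraries labelled knockout 7 were higher and 0 lower. Of all genes, 10.9% were higher and 7.12% lower in wild type, and 7.05 and 3.82% in the libraries labelled knockout. The sum of 8 monocyte and macrophage genes went from 8.82 to 26.4 CPM over PBS libraries to 133 to 253 CPM after LPS in wild type, with all 7 tested members higher, and from 13.7 to 21.4 CPM to 105 to 153 CPM in the libraries labelled knockout. In wild type the sum of 8 neutrophil genes went from a range of 7.99 to 18.7 CPM to one of 117 to 689 CPM. Replicate 6 held the 689 CPM, with replicate 4 next at 328 CPM, and S100a8 and S100a9 made up most of the sum. Only 4 of the 8 could be tested, and all 4 were called higher. The sum of 7 endothelial genes went from 211 to 251 CPM to 421 to 504 CPM. Lymphocyte genes stood low, at 2.50 to 3.46 and 4.88 to 12.4 CPM, with 5 of the 10 at 0 in the wild type PBS libraries, among them Cd3e, Cd79a, Gzma and Klrb1c. The sum of 7 neuronal genes fell from 5520 to 5756 CPM to 4741 to 4996 CPM, 4 members being called lower, against 2 in the libraries labelled knockout. In the libraries labelled knockout the LPS ranges were 86.9 to 383 CPM for neutrophil, 372 to 431 CPM for endothelial, 4.04 to 24.7 CPM for lymphocyte and 4912 to 5247 CPM for neuronal genes. Of 6 astrocyte genes 4 were called higher and 1 lower in wild type, and 3 and 0 in the libraries labelled knockout. Of 6 oligodendrocyte genes 1 was higher and 3 lower in each genotype. Between genotypes after LPS, 3 of 10 microglial and 2 of 7 endothelial genes were called lower in the libraries labelled knockout. So were 1 of 7 tested monocyte and macrophage genes and 1 of 6 astrocyte genes. In that comparison 0 markers were called higher, and 0 neutrophil, lymphocyte, neuronal or oligodendrocyte genes were called. Of all genes, 0.264% were higher and 0.786% lower there. The part of the marker shifts with LPS in the changes of Psmb8, Psmb9 and Psme1 was not tested.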

How the data were processed

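QuantSeq 3′ tag libraries from 24 left hemispheres were sequenced from 100 ng RNA each, per the labels' protocols. The submitters' processing notes name bcl2fastq, STAR 2.7.3a, Subread 2.0.0 with featureCounts, R 3.6.1, DESeq2 1.26.0 and the build mm10/GRCm38, without their roles. The deposited values are raw counts per gene, used as the authors left them, and 55240 of 55421 identifiers were matched to GENCODE M21 symbols.

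Here edgeR 4.0.16 (R 4.3.3) fitted all 24 libraries by group, after filterByExpr with a minimum count of 10 (14380 genes kept) and TMM scaling (factors 0.988 to 1.01). Quasi-likelihood F tests gave p-values, adjusted by Benjamini-Hochberg over all genes, with calls at an adjusted p under 0.05. SE is the log2 fold change divided by the root of F, and 95% intervals are normal. CPM is the count relative to TMM-scaled library size. Groups came from the sample titles, with 6 animals per group per the series' design text, so p-values measure the spread between animals as sampled here.

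The proteasome genes, roles, related lists and markers were chosen with earlier results of these data known. Named genes were the 5 immune genes, their 3 constitutive partners, every proteasome gene called, and from each related list the called genes with the 4 smallest p in wild type plus Tap1, Irf1, Nlrc5, Nfe2l1 and Pomp. Some genes of this rule are not reported here. Nlrc5 was too low to be tested. The fit was tested on simulated counts. Comparisons of 2 groups recovered 37.3 to 41.8% of genes changed by 0.3 on the log2 scale, and 89.4 to 92.3% of those changed by 1. The interaction recovered 11.9% and 73.8%, so small differences between genotypes could be missed. Other scalings, DESeq2 1.42.0, no filter, a replicate block, the 2 groups alone and leaving out each library were tried. The comparison averaged over genotypes and the fit without wild type LPS replicates 1 and 2 were added after seeing the data. Sequence windows came from RefSeq (GRCm38.p6); no protein sequence was used here.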

Additional observations from a re-analysis of the deposited data

Results flagged for a closer look

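Of 56 sets of 6 libraries screened (14 genes in 4 groups), 2 held a library far from the other 5, both for Psma3, the alpha ring subunit. Chance alone flags about 1 in 20 such sets, so 2 of 56 is no more than chance gives. In the wild type LPS group, replicate 2 held 36.8 CPM of Psma3 against 42.7 to 45.5 CPM in the others. In the PBS group labelled knockout, replicate 5 held 43.9 CPM against 49.9 to 52.5 CPM.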

How the results depend on the processing

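Psmb8, Psmb9 and Psme1 kept their calls in both genotypes under every scaling, test, filter and omission tried. The wild type count of 10 proteasome genes (7 higher, 3 lower) was 10 with RLE size factors, 8 (7 and 1) with library size only, 7 (4 and 3) without the filter, 9 (6 and 3) with DESeq2 and 6 with only the 2 groups compared, a fit with fewer genes and libraries. With the replicate number as a block the wild type count was 9, that in the libraries labelled knockout 3 and that averaged over genotypes 6. Correlations between same-numbered libraries ran from -0.077 to 0.165, above 0 throughout for numbers 1 and 5 only. Of 24 libraries, 9 lay closest to their own number, more than random matching would give on average. Whether the excess is beyond random variation was not tested. The main fit did not use the numbers as a pairing, because the labels name none. Whether same-numbered libraries share a source was not tested. Averaged over genotypes, the count of 5 was 10 without wild type LPS replicates 1 and 2; the cause was not tested. Leaving out 1 library gave 5 to 11 calls in wild type, 3 to 4 in the libraries labelled knockout and 4 to 7 averaged over genotypes. The genotype comparisons and the interaction gave 0 in every fit. No direction of a called result reversed. Depth limits Psmc3ip, Psme2 and Psmb9, with as few as 2, 4 and 5 counts in a library, and Psmb8 after PBS, with as few as 8. The interval for the Psme2 interaction was -0.32 to 1.31.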
